A study of Mus musculus with 28 samples.

Results

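In all, 10 genes were followed by RNA-seq in 28 libraries made from cultured mouse dendritic cells of bone marrow origin: Slc4a8, Enpp2, Lrrc16b, Fgd2, Col27a1, Fn1, Clu, Cyp1b1, Igfbp4 and Spint1. They were picked from these same libraries because their levels differed strongly between RelB genotypes at most times, so their RelB differences are given below as a description, with no test. The 10 genes stand among 24995 genes with a single line in both deposited sheets, of which 12972 passed a filter of at least 1 CPM (counts per 1000000 reads) in at least 3 libraries. All 10 genes passed that filter; Lrrc16b and Cyp1b1 did so through the genotypes in which they were high. The question asked of each gene was whether its RelB difference had the same direction with and without the type I interferon receptor.

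The 4 genotypes, all on C57BL/6, were: the double knockout IFNARko;RelBko, the interferon receptor knockout IFNARko, the RelB knockout RelBko, and wild type (WT). The culture method was common to every group: marrow cells were grown with GM-CSF at 20 ng/ml plus IL-4 at 10 ng/ml. Per genotype there was 1 unstimulated control, labelled 1 h, and libraries taken 1, 3 and 8 h into stimulation. The stimuli were the TLR9 ligand CpG (ODN 1668, 0.1 µM) and Poly(I:C) HMW, which mimics double-stranded RNA and whose dose the labels give in conflicting units. Each group held 1 library, and the labels do not say which libraries share a mouse or a culture. SDs over conditions below are therefore the spread of matched genotype differences over 7 conditions, not between animals. SEs and p-values measure how unevenly the genotypes differed across conditions, and not a spread between animals either.

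RelB is a subunit of NF-κB that acts mainly in the alternative pathway, where it pairs with p52 after NIK-dependent processing of p100, and it is needed for the development and maturation of several kinds of dendritic cell. IFNAR is the cell-surface receptor for interferon alpha and beta, and its signalling induces antiviral genes. Both stimuli lead dendritic cells to make type I interferon, so a change after stimulation can pass through IFNAR or bypass it.

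Depth ran between 3269933 reads (IFNARko, CpG 8 h) and 42227938 reads (WT, CpG 8 h), and values near 1 CPM rest on few reads in the shallow libraries. Reads are not independent molecules, and limits from read numbers cover counting error only. The Relb transcript was lower in 7 of 7 conditions in both RelB comparisons, but by little: the IFNARko;RelBko to IFNARko ratio was 0.613 to 0.851 and the RelBko to WT ratio 0.675 to 0.998. The deleted part of the gene is not given in the sources used here, so this gene total does not check the deletion. The Ifnar1 ratio was 0.463 to 0.802 for IFNARko;RelBko over RelBko and 0.478 to 0.772 for IFNARko over WT. Xist was 713 to 1042 CPM in IFNARko;RelBko and 445 to 832 CPM in WT, but at most 0.589 CPM in IFNARko and 0.880 CPM in RelBko, and 4 summed Y-linked genes ran the opposite way. Each single RelB comparison, and each IFNAR difference within 1 RelB state, therefore set an Xist-high genotype against an Xist-low one. Singly, these differences cannot be told apart from this Xist and Y-linked split. The same holds for a difference between the RelB effects of the 2 IFNAR backgrounds. A direction shared by both backgrounds runs across opposite Xist differences. Summed markers of dendritic cells (12 genes) were 10530 to 11570 CPM in IFNARko;RelBko, 13630 to 15510 CPM in IFNARko, 12330 to 14030 CPM in RelBko and 10400 to 13280 CPM in WT, and none was at 0 in all libraries. Cd74 was the largest part of the dendritic cell sum, with genotype medians of 5487 to 7503 CPM. Flt3, Batf3 and Ccr7 had higher medians in IFNARko;RelBko than in IFNARko, and the other listed genes lower ones. Itgax, Irf8 and Dpp4 had lower medians in RelBko than in WT, and the other listed genes higher ones. Irf8 had 84.99 against 299.7 CPM without IFNAR and 121.2 against 251.5 CPM with it. Flt3 had 13.47 against 4.596 CPM and 6.784 against 3.108 CPM. In these bulk cultures fewer cells of a type and less RNA per cell cannot be told apart.

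In 5 of the 10 genes the RelB difference kept 1 direction in all 14 RelB comparisons: Slc4a8 was lower without RelB, and Enpp2, Lrrc16b, Fgd2 and Col27a1 were higher. Clu, Cyp1b1 and Spint1 were higher in IFNARko;RelBko than in IFNARko in 7 of 7 conditions, and lower in RelBko than in WT in 7 of 7. Fn1 and Igfbp4 had the same opposite pattern with 1 exception each.

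**Figure D1:**
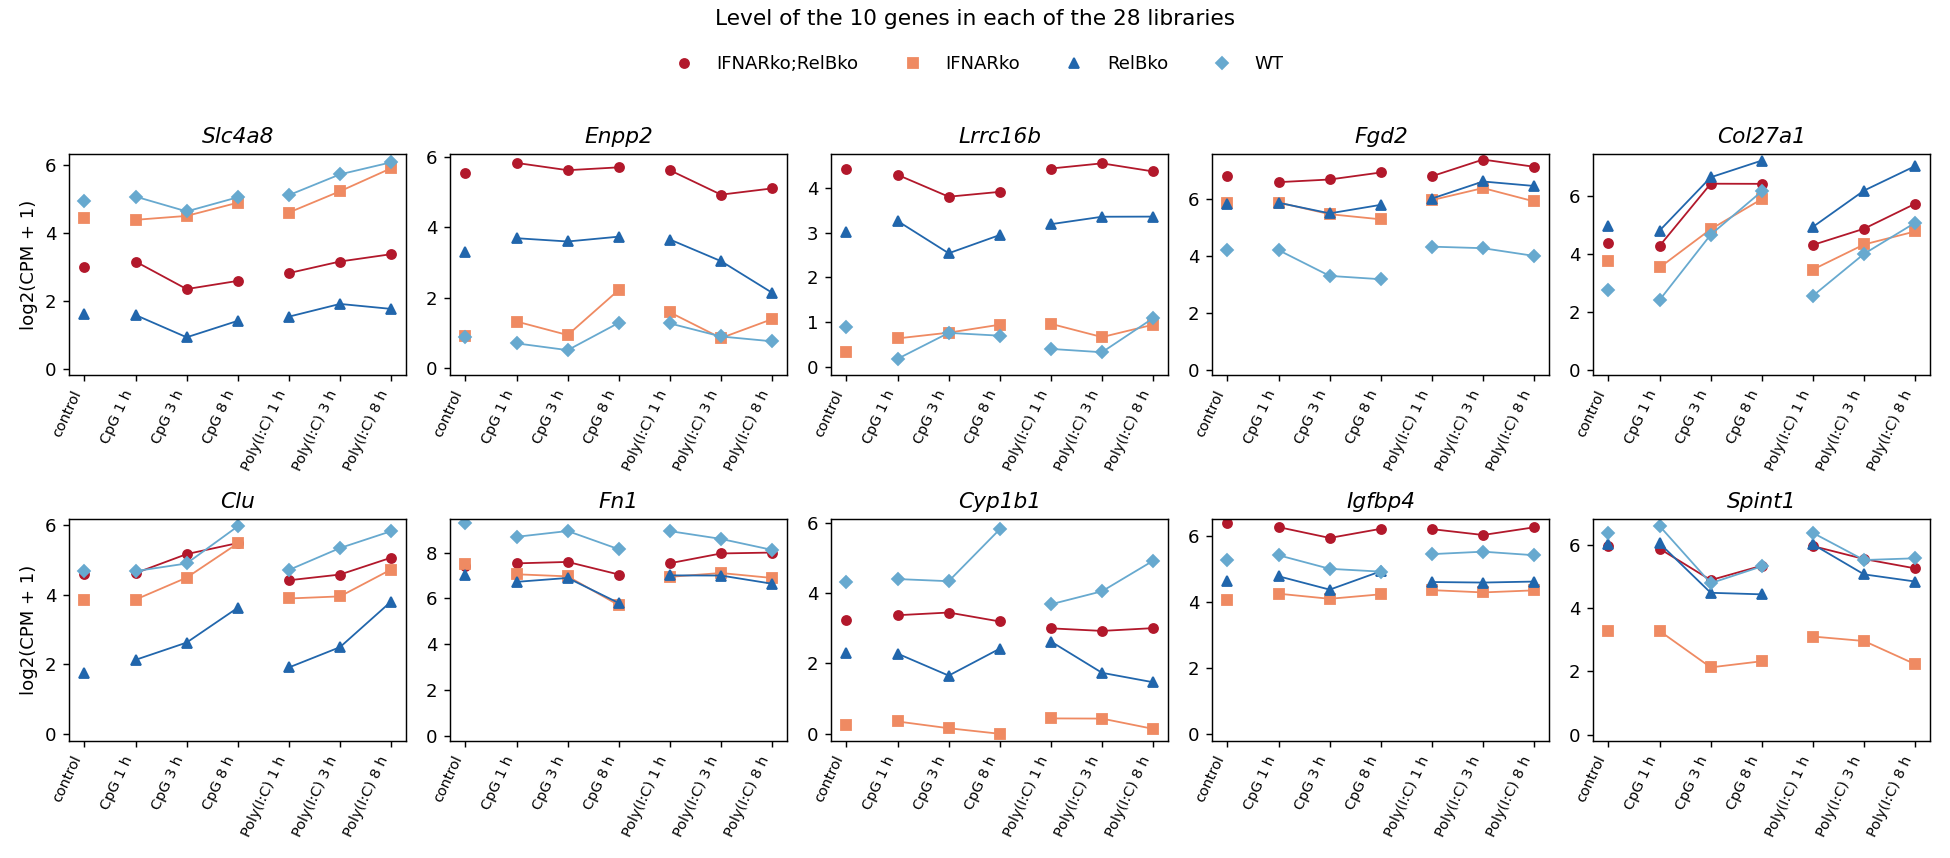
Level of each gene as log2(CPM + 1) in each of the 28 libraries, by condition on the x axis and genotype by colour and marker; lines join times after the same stimulus. Each panel has its own y scale. Slc4a8 sits lowest in RelBko at every condition, whereas Enpp2 and Lrrc16b sit highest in IFNARko;RelBko and next highest in RelBko.

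Slc4a8 encodes a sodium-driven exchanger of chloride for bicarbonate, which takes part in control of intracellular pH, and lies at chr15:100761747-100823968 on the plus strand (mm10, GENCODE M21, as for all gene positions here). It had a lowest, median and highest level of 4.06, 7.01 and 9.31 CPM in IFNARko;RelBko, against 19.8, 23.1 and 58.4 CPM in IFNARko. In RelBko the same 3 values were 0.894, 1.98 and 2.74 CPM, against 23.7, 32.3 and 66.0 CPM in WT. The highest RelB knockout library was below the lowest library of its control in both backgrounds. The mean difference in log2(CPM + 1) was -1.93 ± 0.47 (SD over 7 conditions) for IFNARko;RelBko minus IFNARko and -3.69 ± 0.32 for RelBko minus WT, with 7 of 7 conditions lower in each. The ratio of mean CPM was 0.227 without IFNAR and 0.0506 with it.

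The 250 bases before the Slc4a8 start in RefSeq (GRCm38.p6, chr15:100761497-100761746, plus strand) are shown because RelB binds κB elements and the gene was the member with the lowest RelB-to-control ratio; capitals mark a match to the κB consensus, read as GGGGGCCTCC on the opposite strand at -158 to -149.
Slc4a8: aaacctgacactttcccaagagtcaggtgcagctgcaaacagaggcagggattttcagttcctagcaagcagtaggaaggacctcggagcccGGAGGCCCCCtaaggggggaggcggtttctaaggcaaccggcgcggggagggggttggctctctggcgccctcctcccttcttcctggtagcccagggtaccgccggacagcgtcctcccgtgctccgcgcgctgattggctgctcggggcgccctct
Of 7 genes of the 10 with a RefSeq promoter entry, 3 held a κB consensus match (Slc4a8, Cyp1b1 and Col27a1), and 8.23% of 27025 genes did so in windows of the same length, on either strand. None of the 7 held the ISRE core, which 3.46% of genes held. These matches are letters in a window, and binding was not measured.

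Enpp2 encodes autotaxin, the secreted lysophospholipase D that makes lysophosphatidic acid (chr15:54838901-54952892, minus strand). Its lowest, median and highest levels were 29.3, 48.0 and 55.5 CPM in IFNARko;RelBko, against 0.814, 1.51 and 3.67 CPM in IFNARko. They were 3.41, 11.1 and 12.3 CPM in RelBko, against 0.430, 0.860 and 1.45 CPM in WT. Every library labelled with a RelB knockout was above every library of its control, and every IFNARko;RelBko library was above every RelBko library. Its mean log2 difference was 4.15 ± 0.46 for IFNARko;RelBko minus IFNARko and 2.4 ± 0.57 for RelBko minus WT, and the smallest single difference with IFNAR was 1.38 at Poly(I:C) 8 h. The control levels rest on 85 reads over 7 IFNARko libraries and 98 reads over 7 WT libraries.

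Lrrc16b, called Carmil3 in the annotation, encodes a CARMIL protein that binds actin capping protein (chr14:55490651-55508272, plus strand). It had 13.1, 19.8 and 22.6 CPM as its lowest, median and highest levels in IFNARko;RelBko, against 0.257, 0.693 and 0.943 CPM in IFNARko. In RelBko they were 4.83, 8.17 and 9.31 CPM, against 0.127, 0.616 and 1.12 CPM in WT. The groups did not overlap in either background. Its mean log2 difference was 3.52 ± 0.41 without IFNAR and 2.49 ± 0.50 with it. The controls were near the floor, with 39 reads over the IFNARko libraries and 53 over the WT libraries. The next gene on the same strand, Cpne6, starts 2172 bases after the end of Lrrc16b and was chosen here after its values were seen: its median was 26.1 CPM in IFNARko;RelBko and 3.65 CPM in IFNARko, and 19.7 CPM in RelBko and 4.85 CPM in WT. The part of read-through or shared reads in either gene was not tested.

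Fgd2 encodes a guanine nucleotide exchange factor for Cdc42 that is expressed in antigen-presenting cells (chr17:29360914-29379661, plus strand). Its lowest, median and highest levels were 94.3, 109.9 and 164.0 CPM in IFNARko;RelBko, against 37.6, 57.1 and 81.6 CPM in IFNARko. They were 43.6, 56.8 and 95.8 CPM in RelBko, against 8.00, 17.3 and 18.9 CPM in WT. The groups did not overlap, and the IFNARko and RelBko ranges covered nearly the same levels. On average the log2 difference was 1.08 ± 0.31 without IFNAR, where 3 of 7 conditions reached 2-fold, and 2.08 ± 0.42 with it, where 7 of 7 did.

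Col27a1 encodes the chain of a fibrillar collagen (chr4:63214004-63334991, plus strand) and had the largest fitted change after stimulation among the 10 genes; its genotype ranges overlapped. It had 18.4, 28.3 and 85.2 CPM as its lowest, median and highest levels in IFNARko;RelBko, against 10.0, 19.1 and 58.7 CPM in IFNARko. In RelBko they were 27.0, 72.2 and 149 CPM, against 4.31, 15.0 and 70.9 CPM in WT. At matched conditions the RelB knockout library was the higher in 7 of 7 pairs of both backgrounds. On average the log2 difference was 0.83 ± 0.37 without IFNAR, with 1 of 7 conditions at 2-fold or more, and 2.03 ± 0.46 with it, with 7 of 7.

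The 250 bases before the RefSeq start of Col27a1 (chr4:63215162-63215411, plus strand, GRCm38.p6; inside the span of the GENCODE gene and outside its exons) hold a κB consensus match on both strands at -183 to -174, in capitals, and are shown beside the Slc4a8 window because the difference of Col27a1 runs the opposite way.
Col27a1: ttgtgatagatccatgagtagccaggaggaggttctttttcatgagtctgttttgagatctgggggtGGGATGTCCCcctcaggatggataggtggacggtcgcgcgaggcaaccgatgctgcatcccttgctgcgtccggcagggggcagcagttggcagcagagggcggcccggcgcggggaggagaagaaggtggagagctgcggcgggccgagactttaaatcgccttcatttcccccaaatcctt

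**Figure D2:**
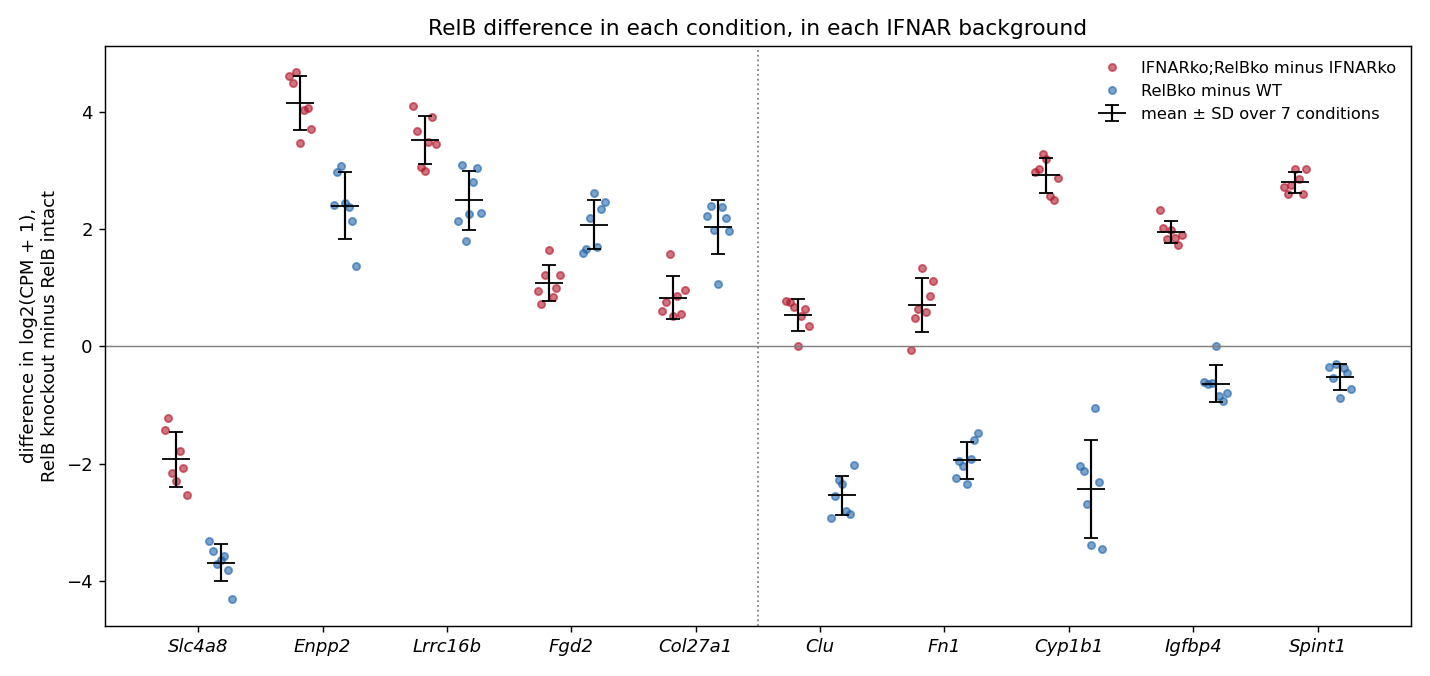
Difference in log2(CPM + 1) between the RelB knockout and RelB-intact library at each of 7 conditions (points), with the mean and SD, for IFNARko;RelBko minus IFNARko (red, left) and RelBko minus WT (blue, right). The 5 genes left of the dotted line lie on the same side of 0 in both backgrounds, and the 5 genes right of it have means on opposite sides.

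Cyp1b1 encodes a cytochrome P450 monooxygenase that the aryl hydrocarbon receptor induces (chr17:79701537-79715061, minus strand). Its lowest, median and highest levels were 6.58, 8.13 and 9.88 CPM in IFNARko;RelBko, against 0.000, 0.193 and 0.354 CPM in IFNARko. They were 1.76, 3.85 and 5.15 CPM in RelBko, against 11.8, 19.2 and 55.1 CPM in WT. The groups overlapped in neither background, and their order was reversed between them. For Cyp1b1 the mean log2 difference was 2.91 ± 0.30 without IFNAR and -2.44 ± 0.84 with it. The IFNARko libraries held 13 Cyp1b1 reads in all, with none at CpG 8 h, where 3 reads would have been 0.917 CPM. On the log2(CPM + 1) scale the difference of such a low gene is understated.

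The promoter of Cyp1b1 (RefSeq, GRCm38.p6, chr17:79715062-79715311, minus strand) is shown because it holds letters of both a κB consensus, GGGACCCTCC on the opposite strand at -188 to -179, and of the dioxin response core GCGTG bound by the aryl hydrocarbon receptor, on the opposite strand at -76 to -72, both in capitals.
Cyp1b1: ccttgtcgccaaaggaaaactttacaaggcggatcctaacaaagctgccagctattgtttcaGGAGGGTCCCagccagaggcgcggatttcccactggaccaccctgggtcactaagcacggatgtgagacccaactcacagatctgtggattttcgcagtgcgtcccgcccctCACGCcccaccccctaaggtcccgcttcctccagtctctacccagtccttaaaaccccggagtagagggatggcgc
GCGTG was found in 3 of the 7 members with an entry (Lrrc16b, Cyp1b1 and Spint1) and in 30.9% of all genes.

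Spint1 encodes HAI-1, a membrane Kunitz inhibitor of serine proteases such as matriptase, hepsin and the HGF activator (chr2:119237362-119249527, plus strand). It had 28.4, 45.7 and 61.5 CPM as its lowest, median and highest levels in IFNARko;RelBko, against 3.35, 6.75 and 8.64 CPM in IFNARko. In RelBko they were 20.5, 32.3 and 64.8 CPM, against 26.5, 46.4 and 95.0 CPM in WT. IFNARko alone stood apart, and the ranges of RelBko and WT overlapped. For Spint1 the mean log2 difference was 2.79 ± 0.18 without IFNAR and -0.52 ± 0.22 with it.

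Igfbp4 encodes a secreted protein that binds insulin-like growth factors (chr11:99041244-99054392, plus strand). Its lowest, median and highest levels were 60, 72.9 and 82.7 CPM in IFNARko;RelBko, against 15.7, 18.0 and 19.4 CPM in IFNARko. They were 19.7, 23.5 and 29.4 CPM in RelBko, against 29.1, 41.5 and 44.8 CPM in WT. Without IFNAR the groups did not overlap, and with it the highest RelBko library was above the lowest WT library. For Igfbp4 the mean log2 difference was 1.95 ± 0.19 without IFNAR and -0.63 ± 0.31 with it, where CpG 8 h was the exception at 0.01.

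Clu encodes clusterin, an extracellular chaperone (chr14:65968483-65981547, plus strand). It had 20.4, 23.7 and 44.0 CPM as its lowest, median and highest levels in IFNARko;RelBko, against 13.3, 14.5 and 43.7 CPM in IFNARko. In RelBko they were 2.39, 4.64 and 13.0 CPM, against 24.7, 29.0 and 61.9 CPM in WT. RelBko lay below all other genotypes, and the ranges of IFNARko;RelBko and IFNARko overlapped. For Clu the mean log2 difference was 0.53 ± 0.27 without IFNAR, as small as 0.01 at CpG 8 h, and -2.54 ± 0.34 with it.

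Fn1 encodes fibronectin, a matrix glycoprotein bound by integrins (chr1:71585520-71653200, minus strand). Its lowest, median and highest levels were 131, 185 and 255 CPM in IFNARko;RelBko, against 51.4, 124 and 178 CPM in IFNARko. They were 54.8, 118 and 131 CPM in RelBko, against 277, 411 and 622 CPM in WT. WT stood above every other genotype, and the ranges overlapped without IFNAR. For Fn1 the mean log2 difference was 0.71 ± 0.45 without IFNAR, where the control pair was the exception at -0.06, and -1.94 ± 0.32 with it.

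Markers of other cell types differed between the genotypes beside these results. Summed macrophage and monocyte markers (17 genes, none at 0 in all libraries) were 1815 to 3676 CPM in IFNARko;RelBko and 1380 to 3038 CPM in IFNARko. They were 2158 to 4331 CPM in RelBko and 4622 to 6938 CPM in WT. Of the members, Slc4a8, Clu, Cyp1b1, Fn1 and Spint1 also had their highest median in WT. Gpnmb and Lyz2 had the largest WT medians of the list, 1980 and 1251 CPM, against 688.5 and 521.9 CPM in RelBko. Emr1, Cd14 and Ly6c2 had higher medians in RelBko than in WT, and the other listed genes lower ones. Among 12 stromal genes, which summed to 93.3 to 143 CPM in IFNARko;RelBko, 117 to 132 CPM in IFNARko, 35.5 to 68.1 CPM in RelBko and 20.6 to 42.7 CPM in WT, Thy1, also a T cell gene, made up most of the sum. Col1a1 had a median of 12.6 CPM in IFNARko;RelBko, 0.236 CPM in IFNARko, 0.249 CPM in RelBko and 0.000 CPM in WT. Pdgfra, Lepr, Thy1 and Acta2 did not have their highest median in IFNARko;RelBko, and the other listed stromal genes did. Of the members, Enpp2, Lrrc16b, Fgd2 and Igfbp4 had their highest median in IFNARko;RelBko. Markers of natural killer and T cells (12 genes) summed to 52.2 to 76.2 CPM in IFNARko;RelBko and 556 to 1031 CPM in IFNARko, and to 128 to 189 CPM in RelBko and 106 to 209 CPM in WT. Mast cell and basophil markers (10 genes) summed to 57.2 to 71.7 CPM in IFNARko;RelBko, 39.6 to 56.8 CPM in IFNARko, 7.14 to 20.6 CPM in RelBko and 8.55 to 29.8 CPM in WT, and so were higher in both IFNAR-knockout genotypes. Neutrophil markers (10 genes) summed to 107 to 185 CPM in IFNARko;RelBko, 79.5 to 186 CPM in IFNARko, 199 to 319 CPM in RelBko and 73.2 to 128 CPM in WT. Retnlg made up most of the IFNARko;RelBko sum, with a median of 89.8 CPM there and 2.24 CPM in IFNARko. Retnlg, Mpo and Elane had higher medians in IFNARko;RelBko than in IFNARko, and the other listed genes lower ones. Among these, S100a8 had 4.61 against 49.6 CPM and S100a9 3.40 against 71.4 CPM. Eosinophil markers (5 genes) summed to 27.3 to 70.7 CPM in IFNARko;RelBko, 139 to 245 CPM in IFNARko, 30.4 to 121 CPM in RelBko and 39.7 to 137 CPM in WT. The part of these cell types in the results here was not tested.

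Against all tested genes, a RelB difference of at least 2-fold with 1 sign in 7 of 7 conditions was found for 2.61% between IFNARko;RelBko and IFNARko and for 0.478% between RelBko and WT. The 10 genes were chosen on these differences: 6 of them met the criterion without IFNAR and 8 with it, and nothing is read from those counts. The ranges of the genotypes did not overlap for 11.7% of genes without IFNAR and 2.83% with it, and for 7 of the 10 genes in each. Any difference with the same sign in all 14 comparisons was found for 13.1% of genes (9.37% higher and 3.68% lower), and at least 2-fold in all 14 for 18 genes, 0.139%, among them Slc4a8, Enpp2 and Lrrc16b. Lower in RelBko than in WT and higher in IFNARko;RelBko than in IFNARko throughout was found for 1.05% (3 of the 10 genes), and the reverse for 1.73% (none of the 10). Opposite signs at 2-fold or more in all 14 were found for 10 genes, 0.0771%: Cyp1b1, 5 genes of the sex chromosomes, and Cd8b1, Ngp, S100a9 and Stfa2l1, named after their values were seen.

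**Figure D3:**
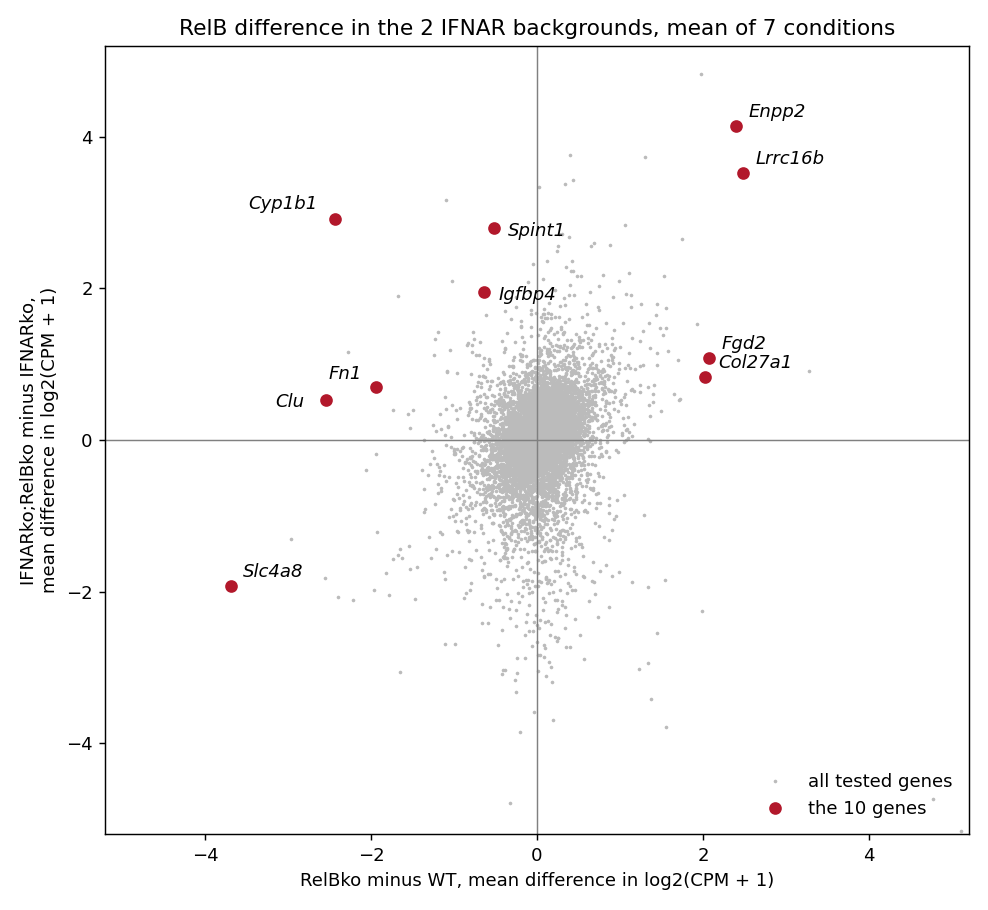
Mean RelB difference in log2(CPM + 1) over 7 conditions for each tested gene, RelBko minus WT on the x axis and IFNARko;RelBko minus IFNARko on the y axis; grey points are all tested genes and red points the 10 genes, and 3 genes lie outside the axes. Slc4a8, Enpp2, Lrrc16b, Fgd2 and Col27a1 lie in the quadrants of shared sign, and the other 5 genes in the upper left.

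The IFNAR difference was not the value used to choose the genes, and its average over both RelB states is balanced for the Xist split. A genotype that stood apart, such as IFNARko for Spint1, enters both the RelB difference and this average. The count and sizes given here are therefore not independent of the choice of genes. The average was called for 9 of the 10 genes (limma on log2(CPM + 1) with genotype and condition as terms, Benjamini-Hochberg adjusted p under 0.05), against 69.4% of all tested genes, the share against which that count stands. Their median was 0.37 and that of all genes 0.15. The median of all genes became 0.00 with median-ratio scaling, and this also turned the split of all calls to 3888 higher and 3853 lower, against 6988 higher and 2013 lower with library totals. Fgd2 rose by 1.39 ± 0.09 (SE; limma adjusted p = 2.7e-12) and Enpp2 by 1.29 ± 0.12 (limma adjusted p = 2.9e-10) in IFNAR-knockout libraries. Cyp1b1 fell by 1.57 ± 0.16 (limma adjusted p = 4.7e-09) and Spint1 by 1.38 ± 0.07 (limma adjusted p = 7.1e-15). Clu at 0.70, Lrrc16b at 0.65, Slc4a8 at 0.50 and Igfbp4 at 0.24 also rose and Fn1 at -0.47 fell; the Igfbp4 call was lost with median-ratio scaling (0.08, limma adjusted p = 0.21). Col27a1, at -0.17 ± 0.13 (limma adjusted p = 0.23), was called with that scaling (-0.33, limma adjusted p = 0.040). For Cyp1b1, Spint1, Igfbp4, Fn1, Clu, Slc4a8 and Col27a1 the average joins means of opposite sign in the 2 RelB states.

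The IFNAR difference had other values in each RelB state. Cyp1b1 differed by 1.10 ± 0.47 (SD over 7 conditions) between IFNARko;RelBko and RelBko, and by -4.25 ± 0.84 between IFNARko and WT. Spint1 differed by 0.27 ± 0.39 and -3.04 ± 0.32 in the same comparisons, Igfbp4 by 1.54 ± 0.15 and -1.05 ± 0.19, and Fn1 by 0.85 ± 0.36 and -1.79 ± 0.39. Clu differed by 2.23 ± 0.54 and -0.84 ± 0.34, and Slc4a8 by 1.39 ± 0.16 and -0.38 ± 0.22. Col27a1 differed by -0.77 ± 0.41 and 0.43 ± 0.60. Fgd2 was higher in IFNAR-knockout libraries in both RelB states, by 0.90 ± 0.21 and 1.89 ± 0.24. Enpp2 differed by 2.16 ± 0.37 and 0.42 ± 0.35, and Lrrc16b by 1.16 ± 0.16 and 0.13 ± 0.39, with few reads of both in IFNARko and WT. Only descriptions are given for these, since the RelB rule shapes their difference. Within 1 RelB state they also cannot be told apart from the Xist and Y-linked split.

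The stimuli were not used by the rule, and Col27a1, Clu and Spint1 changed after both. The only control of each genotype was labelled 1 h. A change at 3 or 8 h therefore cannot be told apart from longer time in culture. No gene of the 10 was called at 1 h, after CpG (0.871% of all genes called) or Poly(I:C) (0.355%), and none had an unadjusted limma p under 0.05. After CpG, 5 of 10 were called at 3 h, against 47.2% of all genes, and 6 of 10 at 8 h, against 56.7%. After Poly(I:C), 4 of 10 were called at 3 h, against 19.7%, and 4 at 8 h, against 39.5%. The medians of the 10 were -0.21 at 3 h and -0.02 at 8 h after CpG, beside -0.15 and -0.16 for all genes, and 0.04 and 0.14 after Poly(I:C), beside 0.02 and -0.03 for all genes. Under median-ratio scaling all genes had a median of -0.02 at CpG 3 h and -0.01 at CpG 8 h. The split of calls at CpG 3 h was 2545 higher and 2629 lower, against 1673 and 4446 with library totals. At CpG 8 h it was 3247 and 3441, against 2122 and 5237. At Poly(I:C) 3 h it was 1396 and 1420, against 1597 and 954. The Poly(I:C) 8 h split was 2549 and 2537, against 2282 and 2845.

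Col27a1 rose after both stimuli: by 1.69 ± 0.24 at CpG 3 h (SE; limma adjusted p = 7.1e-06) and 2.46 ± 0.24 at CpG 8 h (limma adjusted p = 3.4e-08), and by 0.88 ± 0.24 and 1.69 ± 0.24 at Poly(I:C) 3 and 8 h (limma adjusted p = 0.011 and 1.2e-05), in 4 of 4 genotypes each time. Its call at Poly(I:C) 3 h was lost without RelBko (0.77, limma adjusted p = 0.13). Clu rose by 0.58 ± 0.18 at CpG 3 h (limma adjusted p = 0.0095), by 1.42 ± 0.18 at CpG 8 h (limma adjusted p = 3.8e-07) and by 1.14 ± 0.18 at Poly(I:C) 8 h (limma adjusted p = 2.2e-05), in 4 of 4 genotypes each. The 3 h call was lost without IFNARko (0.55, limma adjusted p = 0.054).

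Spint1 fell by 1.34 ± 0.14 at CpG 3 h and 1.06 ± 0.14 at CpG 8 h (limma adjusted p = 1.2e-08 and 3.5e-07), and by 0.64 ± 0.14 and 0.94 ± 0.14 at Poly(I:C) 3 and 8 h (limma adjusted p = 0.0014 and 5.9e-06), in 4 of 4 genotypes each. Fn1 fell by 1.13 ± 0.19 at CpG 8 h (limma adjusted p = 5.8e-05), in 4 of 4 genotypes. Slc4a8 rose by 0.51 ± 0.16 and 0.78 ± 0.16 at Poly(I:C) 3 and 8 h (limma adjusted p = 0.026 and 0.00036), in 4 of 4 genotypes each, and the 3 h call was lost without IFNARko, RelBko or WT (0.41 to 0.58). It fell by 0.39 ± 0.16 at CpG 3 h (limma adjusted p = 0.044), a call that median-ratio scaling ended (-0.27, limma adjusted p = 0.20).

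Fgd2 fell by 0.44 ± 0.16 at CpG 3 h and 0.38 ± 0.16 at CpG 8 h (limma adjusted p = 0.027 and 0.048), and rose by 0.49 ± 0.16 at Poly(I:C) 3 h (limma adjusted p = 0.033). Median-ratio scaling ended both CpG calls (-0.30 and -0.21, limma adjusted p = 0.12 and 0.23), and leaving out a genotype ended the Poly(I:C) call 3 of 4 times. Enpp2 rose by 0.57 ± 0.22 at CpG 8 h (limma adjusted p = 0.028); without IFNARko the change was 0.33 (limma adjusted p = 0.24). Cyp1b1, Lrrc16b and Igfbp4 were called at no time, and the Cyp1b1 change at CpG 8 h was 1.49 in WT alone and 0.33 ± 0.29 in the fit over genotypes.

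**Figure D4:**
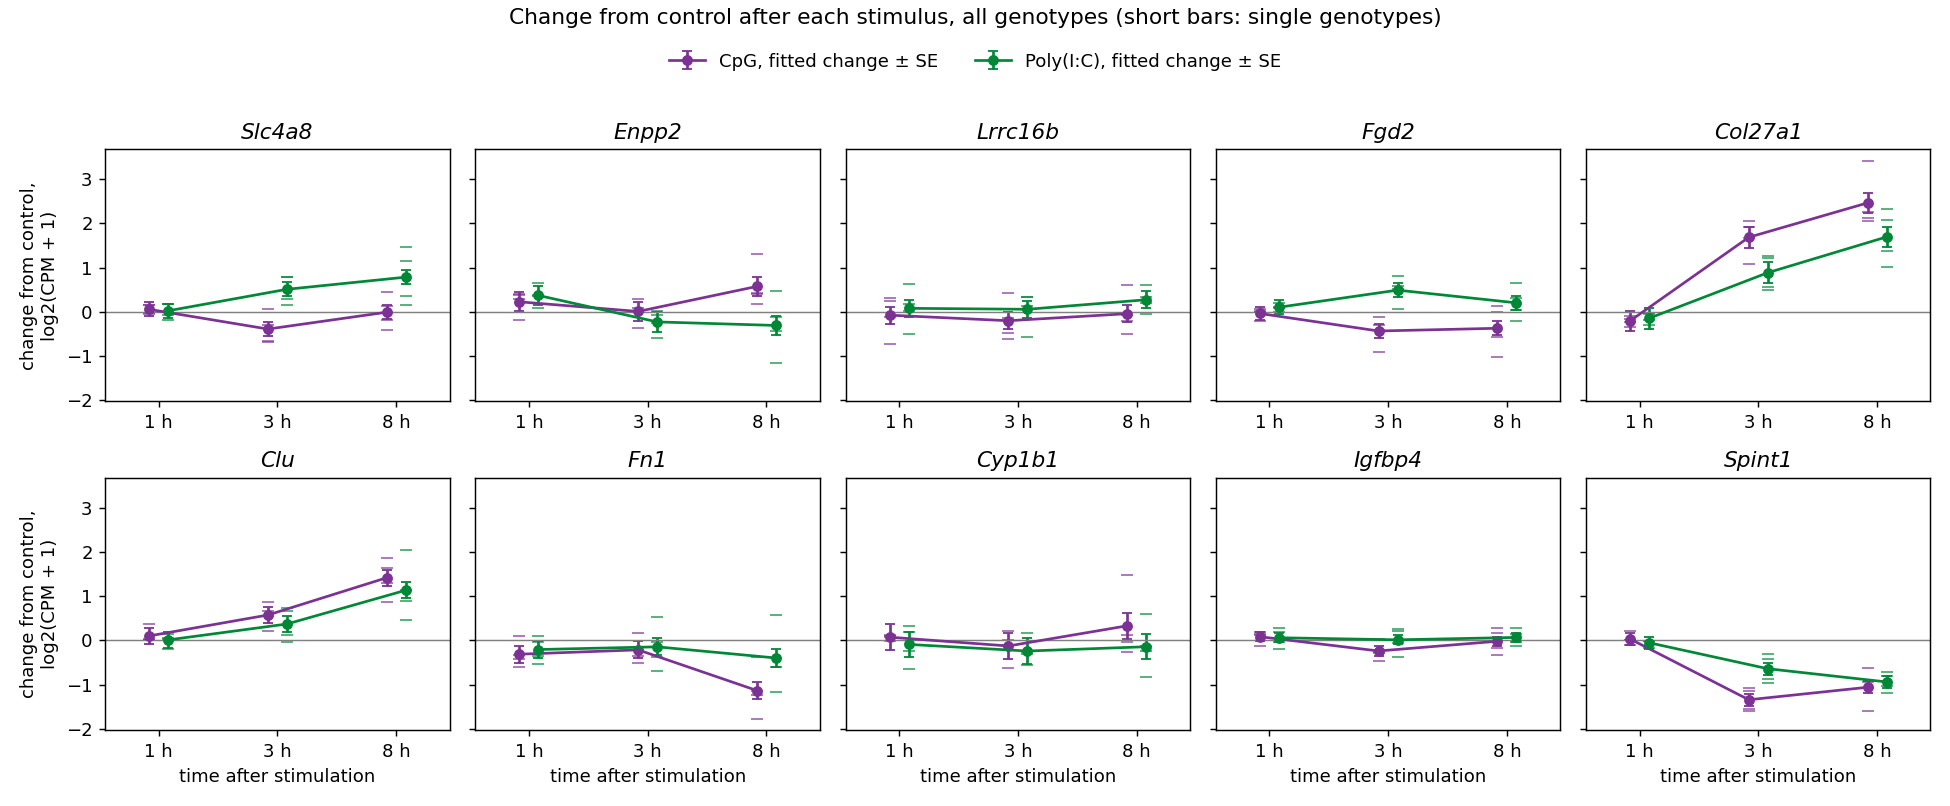
Change from the 1 h control in log2(CPM + 1) at 1, 3 and 8 h after CpG (purple) and Poly(I:C) (green), fitted over 4 genotypes with SE; short bars are single genotypes, and lines join the fitted values. Col27a1 and Clu climb with time after both stimuli and Spint1 falls, while Lrrc16b and Igfbp4 stay near 0.

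Set directly against each other at 3 and 8 h, CpG and Poly(I:C) differed for 6 of the 10 genes, against 53.5% of all genes (split 1367 higher and 5576 lower after CpG, or 2707 and 2725 with median-ratio scaling, which moved the median of all genes to -0.02, against -0.15). Col27a1 was higher after CpG by 0.79 ± 0.17 (SE; limma adjusted p = 0.00056) and Enpp2 by 0.56 ± 0.15 (limma adjusted p = 0.0036). Slc4a8 was lower by 0.85 ± 0.11 (limma adjusted p = 7.6e-07), Fgd2 by 0.75 ± 0.11 (limma adjusted p = 9.5e-06) and Spint1 by 0.41 ± 0.10 (limma adjusted p = 0.00084). Fn1 was lower by 0.40 ± 0.14 (limma adjusted p = 0.018), a call lost with median-ratio scaling (-0.25, limma adjusted p = 0.14). The Enpp2 call was lost without RelBko (0.39, limma adjusted p = 0.052). Clu, at 0.24 ± 0.13 (limma adjusted p = 0.10), was called with median-ratio scaling (0.39, limma adjusted p = 0.020), and Lrrc16b, at -0.29 ± 0.14 (limma adjusted p = 0.077), was called without IFNARko (-0.40, limma adjusted p = 0.041) and without WT (-0.39, limma adjusted p = 0.020).

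Genes with a pattern most like each member were taken as those with the highest Pearson r of log2(CPM + 1) over the 28 libraries, which share genotype and depth, among 9978 genes with a mean of at least 5 CPM. They were Gpc1 and 2610034B18Rik for Slc4a8 (0.919 and 0.926), Retnlg and Pip4k2a for Enpp2 (0.952 and 0.940), Car2 and Tbc1d4 for Lrrc16b (0.944 and 0.941) and Ttc7 and Gpatch2l for Fgd2 (0.975 and 0.947). Cyp1b1 was nearest to Ctsk and Ahrr (0.922 and 0.908), Col27a1 to Slc6a6 and Cd1d1 (0.938 and 0.923) and Spint1 to Angptl2 and Eif3j1 (0.910 and 0.909). Clu was nearest to Papss2 and Mmp25 (0.875 and 0.822), Fn1 to Nucb2 and Nucb1 (0.839 and 0.802) and Igfbp4 to Mctp1 and Xist (0.875 and 0.873). Igfbp4, like Xist, was highest in IFNARko;RelBko and next highest in WT. Among the members themselves, Enpp2 and Lrrc16b had r = 0.942.

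The other genes of each pathway were taken from lists, and tested in the RelB comparison (limma, adjusted p under 0.05), where 53.5% of all genes were called between IFNARko;RelBko and IFNARko (35.7% higher and 17.8% lower) and 33.7% between RelBko and WT (23.5% and 10.2%). With median-ratio scaling the calls were 2942 higher and 3134 lower without IFNAR, against 4627 and 2312, and 1664 and 1991 with IFNAR, against 3048 and 1322. Medians of all genes were 0.10 and 0.08, and the scaling moved the value without IFNAR to 0.01. Either comparison on its own cannot be told apart from the Xist and Y-linked split.

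Of 11 tested bicarbonate transporters and carbonic anhydrases, 4 rose and 2 fell without IFNAR (median 0.18), and 4 rose and none fell with it (median 0.06). Car2, a cytosolic carbonic anhydrase, rose by 1.79 ± 0.06 and 1.25 ± 0.06 (SE; limma adjusted p = 1.9e-19 and 3.1e-15), opposite in sign to Slc4a8. Of 14 genes of the lysophosphatidic acid pathway, 3 rose and 7 fell without IFNAR (median -0.21) and 3 rose and 6 fell with it (median -0.11). Lpcat1, a lysophospholipid acyltransferase, fell by 0.71 ± 0.07 and 0.69 ± 0.07 (limma adjusted p = 7.2e-09 and 4.2e-08). Ppap2b, a lipid phosphate phosphatase, fell by 0.665 ± 0.12 and 0.85 ± 0.12 (limma adjusted p = 6.5e-05 and 6.9e-06), while Enpp2 was higher in both comparisons.

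Of 16 FGD exchange factors and actin capping regulators, 5 rose and 6 fell without IFNAR (median -0.004) and 4 rose and 4 fell with it (median 0.09). Fgd6, related to Fgd2, fell by 0.71 ± 0.07 without IFNAR and 0.37 ± 0.07 with it (limma adjusted p = 4.2e-09 and 2.0e-04). Cdc42ep4, an effector of Cdc42, rose by 0.62 ± 0.07 and 0.45 ± 0.07 (limma adjusted p = 3.9e-08 and 1.9e-05). Of 23 collagens and matrix glycoproteins, 16 rose and 2 fell without IFNAR (median 1.13), where Col1a2 rose by 3.76 ± 0.15 and Col1a1 by 3.37 ± 0.14 (limma adjusted p = 3.0e-17 each), and 8 rose and 3 fell with it (median 0.27). Col1a1, Col1a2 and Col3a1 are also on the stromal list. On that list Dcn had a median of 2.80 CPM in IFNARko;RelBko and 0.000 CPM in each other genotype. Pdgfrb had 3.85 CPM in IFNARko;RelBko, 0.713 CPM in IFNARko, 0.827 CPM in RelBko and 0.860 CPM in WT. Pdgfra, Lepr, Thy1 and Acta2 of the stromal list did not have their highest median in IFNARko;RelBko. The part of stromal cells in the collagen and matrix list was not tested. Nid1, a basement membrane linker, rose by 0.995 ± 0.10 without IFNAR and 1.45 ± 0.10 with it (limma adjusted p = 2.9e-09 and 8.2e-12). Of 9 fibronectin-binding integrins, 4 rose and 2 fell without IFNAR (median 0.10) and 5 rose and 1 fell with it (median 0.12), among them Itga4 at 0.56 ± 0.06 and 0.47 ± 0.06 (limma adjusted p = 2.3e-08 and 1.6e-06).

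Of 10 aryl hydrocarbon receptor pathway genes, 4 rose and 4 fell without IFNAR (median 0.01) and 2 rose and 5 fell with it (median -0.21). Ahrr, a repressor of the receptor, had the signs of Cyp1b1: 1.13 ± 0.13 without IFNAR and -1.24 ± 0.13 with it (limma adjusted p = 3.8e-08 and 2.4e-08). Aldh3a1, another target of the receptor, fell by 0.99 ± 0.10 without IFNAR and rose by 0.31 ± 0.10 with it (limma adjusted p = 2.2e-09 and 0.015). Of 8 chaperones, clusterin receptors and complement regulators, 2 rose and 3 fell without IFNAR (median -0.09) and 1 rose and 5 fell with it (median -0.40). Apoe, an apolipoprotein and a macrophage marker, fell by 1.30 ± 0.14 and 2.96 ± 0.14 (limma adjusted p = 6.2e-09 and 1.5e-15).

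Of 8 insulin-like growth factor pathway genes, 2 rose and 4 fell without IFNAR and none rose and 3 fell with it (medians -0.14 and -0.15). Igfbp5, a relative of Igfbp4, rose by 1.96 ± 0.17 without IFNAR (limma adjusted p = 1.7e-10) and was not called with it (-0.08 ± 0.17, limma adjusted p = 0.73). Igf1 fell by 0.90 ± 0.08 and 0.64 ± 0.08 (limma adjusted p = 3.5e-09 and 2.7e-06). Of 11 genes of Kunitz inhibitors, their proteases and the HGF system, 1 rose and 7 fell without IFNAR (median -0.52) and 4 rose and 3 fell with it (median -0.13). St14, which encodes the matriptase that Spint1 inhibits, rose by 0.51 ± 0.07 with IFNAR (limma adjusted p = 5.4e-06), and its mean difference without IFNAR was -0.52, so both values were opposite in sign to those of Spint1. F2r, a thrombin receptor, fell by 1.98 ± 0.12 without IFNAR and rose by 0.42 ± 0.12 with it (limma adjusted p = 6.0e-14 and 0.0055). Plau fell in both comparisons, by 1.33 ± 0.12 and 0.81 ± 0.12 (limma adjusted p = 7.3e-09 and 2.3e-05).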

How the data were processed

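The authors deposited 2 sheets of normalised signal, with edgeR, cutadapt and mm10 named in the submitters' processing notes; no version, aligner or counter is given in the sources used here. Each deposited signal value is 1 above its CPM, with 1 as the minimum, and 1 was subtracted. Unnamed entries (0.0733% to 0.1157% of CpG sheet libraries) and 11 duplicated symbols were left out, and the 4 control columns were identical in both sheets.

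Values were analysed as log2(CPM + 1) with limma 3.58.1 (statmod 1.5.0, R 4.3.3; trend and robust), genotype and condition as terms over 28 libraries (18 residual degrees of freedom), Benjamini-Hochberg over 12972 genes, two-sided. Each group has 1 library. The fit was tested on simulated reads, with the same mean in every library apart from genes given a known change. The simulation held no variation between animals or cultures, so it does not bear on that spread. Depth was 3269933 to 42227938 reads. Members and lists were chosen with earlier results of these data known. Besides the members, pathway genes were named from the 2 called genes of lowest adjusted p per list and RelB comparison. Not all of these are given. The 2 nearest patterns per member and checks of the genotypes were also named. Single marker genes were named by no such rule. Other genes chosen after their values were seen are named as such. Figures used Python 3.11.15 and matplotlib 3.10.9.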

Additional observations from a re-analysis of the deposited data

Results flagged for a closer look

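Among the 10 genes and the named genes of their pathway lists, 6 had RelB differences of opposite sign in the 2 IFNAR backgrounds at every condition, and the difference between backgrounds was not tested; it cannot be told apart from the Xist and Y-linked split. Cyp1b1 differed by 2.91 between IFNARko;RelBko and IFNARko and by -2.44 between RelBko and WT (means of log2(CPM + 1) over 7 conditions). Spint1 differed by 2.79 and -0.52, and Clu by 0.53 and -2.54. Of the pathway genes, Ahrr differed by 1.13 and -1.24, Aldh3a1 by -0.99 and 0.31, and St14 by -0.52 and 0.51. The Aldh3a1 call with IFNAR was lost with median-ratio scaling. Over all tested genes, 1.05% were lower with IFNAR and higher without it throughout, and 1.73% the reverse.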

How the results depend on the processing

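With a pseudocount of 0.25 CPM, with median-ratio scaling and without the conditions of the 2 shallowest libraries, 5 of the 10 genes had 1 sign throughout, as reported. The smaller pseudocount enlarged differences of low genes: Enpp2 4.68 and 3.04 (without and with IFNAR), Lrrc16b 4.34 and 3.39, Cyp1b1 4.26 without and Slc4a8 -4.11 with it. Median-ratio scaling gave 3 member calls at CpG 3 h, against 5, and 11 gene calls at Poly(I:C) 1 h, against 46. Leaving out a genotype in turn gave 51 to 144 genes at CpG 1 h (113 with all), 0 to 20 at Poly(I:C) 1 h, 1048 to 2233 at 3 h (2551) and 3126 to 4788 at 8 h (5127), with the fewest without RelBko. Member calls were 3 to 4 at CpG 3 h and 1 to 3 of 4 at Poly(I:C) 3 h. Cyp1b1 was called higher at CpG 8 h with limma voom on reads worked back from CPM (1.21), and also without the 2 shallowest libraries (0.88). Those 2 libraries are IFNARko and IFNARko;RelBko at CpG 8 h, where Cyp1b1 changed by -0.255 and -0.044. Without them that condition holds only WT, at 1.49, and RelBko, at 0.135. Voom was chosen after the data were seen, and the planned quasi-likelihood count test was not run. The causes were not tested. No called difference of the 10 genes changed sign in these settings. Under median-ratio scaling the majority of calls over all genes turned for both RelB comparisons and for Poly(I:C) 3 and 8 h, as given above. No paired analysis was possible because the labels carry no replicate numbers and tie no libraries to an animal or culture; libraries were matched by condition only. Depth limits Cyp1b1, Enpp2 and Lrrc16b, which had few reads in their low genotypes.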
